A study of Mus musculus with 2 samples.

Results

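Microglia-type tumour macrophages were described here in 2 glioblastomas (GBMs) of the NPCTKO mouse model. They numbered 1064 of 32898 barcodes in all, with 736 of 14302 in tumour 1 and 328 of 18596 in tumour 2. Members were selected on measured values. A barcode needed at least 500 genes, less than 20% mitochondrial UMIs, at least 20 UMIs of C1qa, C1qb and C1qc together and at least 5 UMIs of P2ry12, Tmem119, Cx3cr1 and Siglech together per 10000 mouse-gene UMIs, a measure called N below. It also needed no UMI of Cd3d, Cd3e or Cd3g and an EGFP N under 20. A UMI marks 1 captured transcript, so that copies made in amplification are not counted again. Each library came from 1 C57BL/6 mouse of 3 months. In NPCTKO mice, neocortical precursors of the embryo are electroporated with plasmids that carry Cas9, luciferase, guides against tumour suppressors that include Trp53 and Nf1, and an EGFP or DsRed label, so that GBMs arise in the adult brain. Per the study's methods, 1 tumour grew in a Tek-Cre;Ai14 host, where tdTomato marks endothelial cells and tumour-associated macrophages (TAMs), and 1 in a Tbx18CreERT2/+;Ai14 host, where it marks mural cells. The labels do not say which library came from which host, so host, tumour and library cannot be told apart, and both tumours form 1 group with no untreated brain beside it.

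Microglia are the resident macrophages of the brain parenchyma. They are seeded from the yolk sac, renew locally under CSF1R signalling, and keep a homeostatic program of sensing receptors and enzymes under transcription factors such as Sall1 and Mef2c. Macrophages that arise from blood monocytes can enter a brain tumour and take on C1q and MHC class II, while they tend to lack that program. TAMs in GBM can hold both kinds.

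Mouse-gene totals were 282961884 UMIs in tumour 1 and 295366782 in tumour 2, and 12854 and 15555 barcodes passed the filters. The median member had 17920 UMIs in tumour 1 and 25810 in tumour 2, against 15800 and 17970 in C1q macrophages. The 2 libraries shared 51 barcodes, none of which was a member in both. Of the barcodes that met both the C1q and the microglial limit (891 and 443), 45 and 30 were set aside for a Cd3 UMI and 120 and 90 for EGFP. Doublet scores were computed with Scrublet, whose automatic threshold marked 0 barcodes in tumour 1 and had not worked there, so doublets stayed in. Among the 11.4% and 14.9% of barcodes with the highest scores were 7.2% and 5.18% of members, against 19.3% and 13.1% of C1q macrophages.

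Other cells were classed by the same counts. C1q macrophages met every limit of the members but had a microglial N under 5 (207 and 875 cells in tumours 1 and 2). Monocytes had under 20 N of C1q, at least 10 N of Ly6c2, Chil3 and Plac8, and at least 5 N of Lyz2 (15 and 524). Neutrophils, set by S100a8 and S100a9, numbered 1 and 49, and dendritic cells, set by MHC class II with Flt3, Cd209a, Xcr1, Clec9a or Ccr7, numbered 24 and 82. T cells, set by Cd3 genes, numbered 270 and 565. In tumour 1 members made up 74.9% of the gated myeloid cells, and in tumour 2 they made up 17.7%. These shares moved with the limits. With an EGFP N under 5 they were 80.75% and 31.4%, and with a microglial N of at least 10 they were 68.2% and 7.5%.

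Members were 5.73% of passing barcodes in tumour 1 (exact binomial 95% interval 5.33 to 6.14) and 2.11% in tumour 2 (1.89 to 2.35). Intervals on shares and levels cover counting error only. With 1 library per tumour no test between tumours was possible. The share depends on depth and on the limits: after each barcode was thinned to 2000 UMIs it was 6.17% and 3.50%, and with a microglial N of at least 10 it was 4.12% and 0.797%. Tumour 1 had the larger share in all of these settings.

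**Figure D1:**
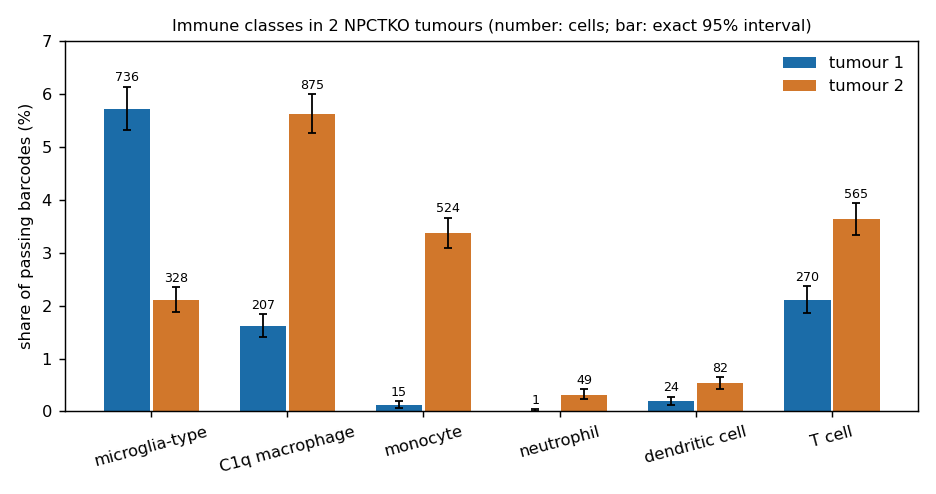
Share of passing barcodes (%) in 6 immune classes, with tumour 1 in blue and tumour 2 in orange, exact binomial 95% intervals as bars and the number of cells above each bar. Microglia-type cells were 5.73% in tumour 1 and 2.11% in tumour 2, while C1q macrophages were 1.61% and 5.63%.

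The rule's own genes are given as a description. C1qa, which starts the classical complement cascade, stood at 10720 and 11760 CPM (the usual per-library scaling of the summed UMIs of a class) in members of tumours 1 and 2, against 6641 and 6073 CPM in C1q macrophages. Cx3cr1, the fractalkine receptor, had 874 and 386 CPM in members, against 169 and 70.05 CPM in C1q macrophages. Tmem119, a microglial surface protein, had 369 and 248 CPM in members and 56.5 and 60.4 CPM in C1q macrophages. P2ry12, the ADP receptor that steers microglial processes, had 178 and 152 CPM in members and 23.4 and 17.9 CPM in C1q macrophages. All 4 microglial genes of the rule were seen in 331 members of tumour 1 and 198 of tumour 2, and only 1 of them in 23 and 3. The microglial N of members had a median of 14.6 in tumour 1 and 8.31 in tumour 2. Just inside the limit, at an N from 5 to under 6, lay 35 and 52 members, with medians of 5.50 and 5.37, and just outside it, at an N from 4 to under 5, lay 29 and 61 C1q macrophages, with medians of 4.43 and 4.51. No microglial UMI was seen in 39 and 323 C1q macrophages. Cells thus lay close to the limit on both sides, and whether the levels form separate populations was not tested.

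Members were then compared with C1q macrophages across genes that no gate used, to ask which other genes went with the microglial ones. Counts were summed per tumour and class, and edgeR's quasi-likelihood test with tumour as a block and Benjamini-Hochberg adjustment was run on 12768 genes. It called 185 genes higher in members (1.45% of those tested) and 124 lower (0.971%). The classes were cut from the same cells, so a gene that varies with the gate genes differs by that cut, and the test reads that difference against the spread left after the tumour block. A gene seen in 1 tumour alone can pass it. With 2 tumours the fit had 3 residual degrees of freedom, and without the block it called 0 genes in either direction, with 255 higher and 224 lower at an unadjusted p under 0.05 in edgeR and 194 and 126 calls in DESeq2 with the block. With cells limited to an EGFP N under 5 the calls numbered 23 higher and 35 lower, and without barcodes of high doublet score 115 and 129. TMM scaling raised members over C1q macrophages by 0.19 on the log2 scale against plain CPM, and folds are given on the TMM scale.

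Most genes of the homeostatic microglia list were higher in members. Of 24 genes listed, 23 were tested, of which 18 were higher and 0 were lower, against a background of 1.45% of all genes higher. The median log2 fold of the 23 was 1.63, against 0.02 over all tested genes. This list and those below were chosen with earlier results of these data known. The classes were also cut on microglial genes, so the counts beside the background are a description and no test of a list. Olfml3, a secreted glycoprotein of microglia, had 411 CPM in members of both tumours, against 164 and 137 CPM in C1q macrophages of tumours 1 and 2. Its log2 fold was 1.64 (SE 0.21, edgeR adjusted p = 0.0038). Sall1, the transcription factor that holds microglial identity, had 58.7 and 14.2 CPM in members and 12.1 and 3.83 CPM in C1q macrophages (2.28, SE 0.30, edgeR adjusted p = 0.00391). In both genes the members of each tumour exceeded the C1q macrophages of either tumour. Crybb1, Gpr34, Ltc4s, Gpr84, Lag3 and Golm1, which are among the largest changes, belong to this list too. Csf1r, the receptor on which microglial survival rests, had 758.5 and 569.7 CPM in members and 296.5 and 264.1 CPM in C1q macrophages, and Mef2c had 280 and 161 CPM against 112 and 56.8 CPM. Among the tested genes that did not pass were Sparc, Cst3, Sall3 and Adgrg1. Cst3, the protease inhibitor cystatin C, had 6256 and 8175 CPM in members and 4580 and 3541 CPM in C1q macrophages (edgeR adjusted p = 0.0875).

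Detection per cell gave the same order at equal depth. With cells thinned to 2000 UMIs, Crybb1, a crystallin gene that microglia express outside the lens, was seen in 39.0% of members of tumour 1 (exact 95% interval 35.4 to 42.6) and 32.9% of those of tumour 2 (27.9 to 38.3), against 8.5% and 3.11% of C1q macrophages. T cells, which should lack it, had 1.13% and 0%, with 0 of 565 cells in tumour 2, which limits cells with a UMI at this depth, not cells that express the gene, to 0.651% (upper exact limit). Their median depths were 10370 and 9075 UMIs before thinning, and unthinned shares of Crybb1 were 67.1% and 76.8% in members, 28.0% and 13.7% in C1q macrophages and 4.07% and 1.42% in T cells. Gpr34, a lysophosphatidylserine receptor, was seen after thinning in 26.0% and 20.7% of members, against 7.5% and 3.45% of C1q macrophages and 1.88% and 1.42% of T cells.

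The 12 genes with the largest rise among those at 50 CPM or more were Crybb1, Gpr34, Ltc4s, Gpr84, Ptgs1, Cryba4, Il1a, Plxdc2, Lag3, Ctsf, Xlr and Golm1. Crybb1 had 400.5 and 238 CPM in members, against 66.5 and 18.3 CPM in C1q macrophages (log2 fold 3.34, SE 0.28, edgeR adjusted p = 0.000387). Its neighbour in kind, Cryba4, had 219 and 163 CPM in members and 70.8 and 33.2 CPM in C1q macrophages. Among enzymes of lipid mediators, Ltc4s, which makes leukotriene C4, had 150 and 127 CPM in members and 33.1 and 22.0 CPM in C1q macrophages. Ptgs1, the constitutive cyclooxygenase, had 226 and 172 CPM in members and 65.0 and 38.9 CPM in C1q macrophages. Gpr84, a receptor for medium-chain fatty acids, had 102 and 201 CPM in members and 24.6 and 34.1 CPM in C1q macrophages. For these genes the lower of the 2 member values lay above the higher C1q macrophage value. Lag3, an inhibitory receptor best known from T cells, had 282 and 234 CPM in members and 144 and 41.9 CPM in C1q macrophages (1.97, SE 0.38, edgeR adjusted p = 0.0221), while T cells had 236.5 and 65.9 CPM. The Lag3 call ended without barcodes of high doublet score (edgeR adjusted p = 0.0764) and with an EGFP N under 5 (0.0874). Xlr has close paralogs, and its count is uncertain for that reason.

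**Figure D2:**
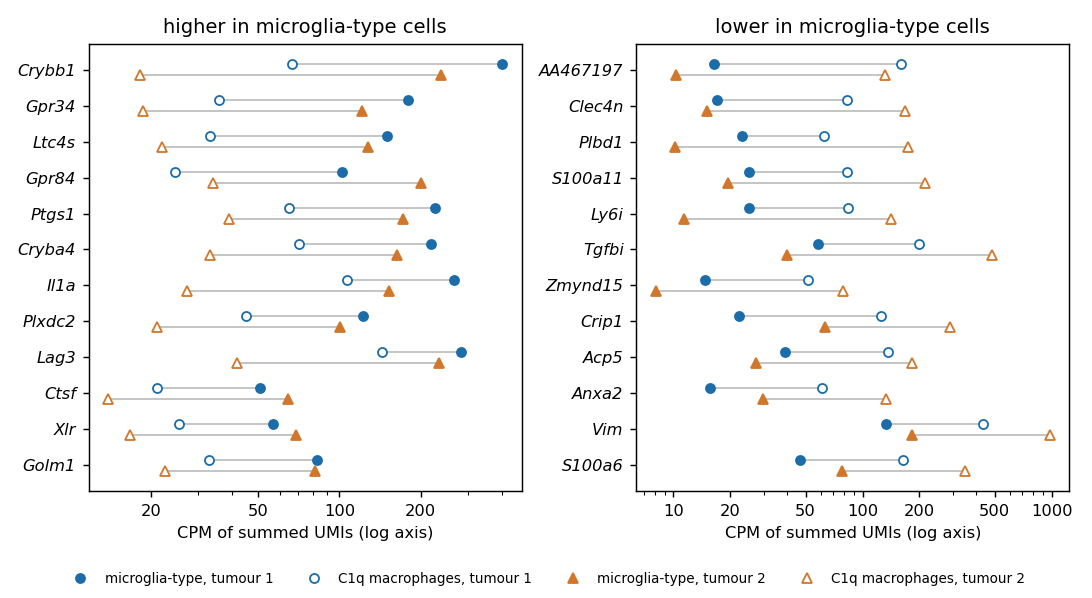
CPM of summed UMIs (log axes) of the 12 genes with the largest rise and the 12 with the largest fall in microglia-type cells (filled) against C1q macrophages (open), with circles for tumour 1 and triangles for tumour 2. Crybb1 had 400.5 and 238 CPM in members and 66.5 and 18.3 CPM in C1q macrophages, and Vim had 133 and 183 CPM against 434.5 and 974.8 CPM.

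The 12 with the largest fall were AA467197, Clec4n, Plbd1, S100a11, Ly6i, Tgfbi, Zmynd15, Crip1, Acp5, Anxa2, Vim and S100a6. Vim, the intermediate filament vimentin, had 133 and 183 CPM in members, against 434.5 and 974.8 CPM in C1q macrophages (−1.86, SE 0.24, edgeR adjusted p = 0.0038). Clec4n, the fungal sensor dectin-2, had 17.1 and 15.1 CPM in members and 82.3 and 167 CPM in C1q macrophages. Anxa2, an annexin that binds membranes with S100 proteins, had 15.7 and 29.8 CPM in members and 61.0 and 134 CPM in C1q macrophages. Tgfbi, an extracellular matrix protein, had 58.4 and 39.9 CPM in members and 199.8 and 483 CPM in C1q macrophages, and its call, like that of Clec4n, ended in DESeq2 (DESeq2 adjusted p = 0.186 for Tgfbi and 0.895 for Clec4n). In edgeR both calls also ended with a C1q N of at least 50, with DESeq2 size factors and with no EGFP limit. The Tgfbi call further ended with an EGFP N under 5, and that of Clec4n without barcodes of high doublet score. Ly6i belongs to a family of near-identical genes and is uncertain in the same way as Xlr. By the rule that named them, all 12 were lower in members in both tumours.

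The list for monocyte-derived cells moved the other way from the homeostatic one. Of 18 genes, 4 belonged to gates and 14 were tested, of which 0 were higher and 7 were lower in members (background 0.971% of all genes lower). Their median was −1.77. Ccr2, the receptor that draws monocytes from the blood, had 3.95 and 3.31 CPM in members, against 23.4 and 42.5 CPM in C1q macrophages (−2.94, SE 0.62, edgeR adjusted p = 0.0325). S100a4, a calcium-binding protein of motile cells, had 6.44 and 13.6 CPM in members and 34.1 and 108 CPM in C1q macrophages (−2.64, SE 0.47, edgeR adjusted p = 0.0168). S100a10, the partner of annexin A2, had 47.6 and 44.3 CPM in members and 158 and 199.8 CPM in C1q macrophages (−1.75, SE 0.28, edgeR adjusted p = 0.0101). The other genes of the list that were lower were Tgfbi, Vim, S100a6 and Napsa. Ifitm3, which blocks virus entry, did not pass (−0.13), with 1220 and 1560 CPM in members and 1292 and 2292 CPM in C1q macrophages. With a C1q N of at least 50 in both classes, 2 of the 14 were called lower, and with no EGFP limit 4 were.

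The list for border macrophages, which line meninges and vessels, summed to 413 and 146 CPM in members and 506 and 511.5 CPM in C1q macrophages. Of 12 genes listed, 8 were tested, 0 were higher and 2 were lower in members (background 0.971% of all genes lower). Cd163, Lyve1 and Cd209f, which define these cells, stood at 0.139, 0.139 and 0 CPM in members of tumour 1 and at 0 CPM in those of tumour 2. Mrc1, the mannose receptor, had 20.8 and 9.24 CPM in members and 10.3 and 12.5 CPM in C1q macrophages. Maf, a transcription factor, had 121 and 22.2 CPM in members and 55.73 and 14.99 CPM in C1q macrophages and did not pass (1.07, edgeR adjusted p = 0.0639). Stab1, a scavenger receptor, had 59.2 and 23.6 CPM in members and 43.2 and 24.0 CPM in C1q macrophages and did not pass (0.40, edgeR adjusted p = 0.551). Ms4a7, a surface gene of macrophages that settle in the brain from blood or border niches, had 148 and 60.6 CPM in members and 297 and 285 CPM in C1q macrophages (−1.42, SE 0.29, edgeR adjusted p = 0.0292). F13a1, a subunit of clotting factor XIII, had 0.208 and 0.114 CPM in members and 2.76 and 10.5 CPM in C1q macrophages. Both border calls ended when the EGFP limit was dropped (edgeR adjusted p = 0.215 for Ms4a7 and 0.27 for F13a1).

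Functional lists gave fewer calls than the homeostatic one. For these and the lists that follow, the background was 1.45% of all tested genes higher and 0.971% lower. Of 16 cytokine and chemokine genes, 3 were higher and 1 was lower in members. Il1a, the alarm cytokine interleukin-1 alpha, had 266 and 152 CPM in members, against 107 and 27.2 CPM in C1q macrophages (2.09, SE 0.31, edgeR adjusted p = 0.00638). Ccl12, a chemokine for CCR2, had 1182 and 845 CPM in members and 682 and 274 CPM in C1q macrophages (1.38, SE 0.24, edgeR adjusted p = 0.015). Pdgfb, a growth factor for pericytes and glial precursors, had 52.7 and 25.8 CPM in members and 28.6 and 7.98 CPM in C1q macrophages (1.48, SE 0.28, edgeR adjusted p = 0.0221). Vegfa, the main angiogenic factor, fell to 18.6 and 12.2 CPM in members, against 66.8 and 40.2 CPM in C1q macrophages (−1.59, SE 0.22, edgeR adjusted p = 0.0049). The Ccl12 and Pdgfb calls ended when barcodes with high doublet scores were left out (edgeR adjusted p = 0.0764 and 0.0798), while Il1a and Vegfa kept theirs. With an EGFP N under 5 the Ccl12, Pdgfb and Vegfa calls ended (edgeR adjusted p = 0.102, 0.227 and 0.0545).

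Ccl3 and Ccl4, a pair of inflammatory chemokines, differed in the gap between classes from tumour to tumour. Ccl3 had 437 and 771 CPM in members of tumours 1 and 2, against 450 and 113 CPM in C1q macrophages. Ccl4 had 1277 and 1893 CPM in members and 1004 and 229 CPM in C1q macrophages. Neither passed (edgeR adjusted p = 0.215 and 0.204). Il1b, the inflammasome product interleukin-1 beta, had 445 and 512 CPM in members and 545 and 976 CPM in C1q macrophages, and Tnf had 61.1 and 89.4 CPM in members and 54.2 and 14.6 CPM in C1q macrophages; neither passed (edgeR adjusted p = 0.769 and 0.181).

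Genes of damage-associated microglia, a phagocytic state that depends on the lipid receptor TREM2, ranged widely in level in both classes. The list summed to 58780 and 43700 CPM in members and 53540 and 27270 CPM in C1q macrophages. Apoe made up the largest part, while Ank had 13.6 and 8.56 CPM in members. Of 21 tested, 2 were higher and 1 was lower in members, with a median of 0.44. Apoe, the lipid carrier, was at 37370 and 22330 CPM in members and 32330 and 13140 CPM in C1q macrophages and did not pass (0.66, edgeR adjusted p = 0.214). Trem2 had 1349 and 1170 CPM in members and 800.3 and 422 CPM in C1q macrophages (1.28, SE 0.24, edgeR adjusted p = 0.0196). Cst7, a cysteine protease inhibitor, had 717 and 356 CPM in members and 423 and 108 CPM in C1q macrophages (1.44, SE 0.33, edgeR adjusted p = 0.0451). Lgals3, the glycan-binding galectin-3, had 279 and 577 CPM in members and 1294 and 1960 CPM in C1q macrophages (−1.82, SE 0.25, edgeR adjusted p = 0.00486). The Trem2 and Cst7 calls ended without the barcodes of high doublet score (edgeR adjusted p = 0.0501 and 0.127). With an EGFP N under 5 the Trem2, Cst7 and Lgals3 calls ended (edgeR adjusted p = 0.284, 0.12 and 0.0916). The Cst7 call further ended with a C1q N of at least 50 (0.11) and with DESeq2 size factors (0.061) in edgeR, and in DESeq2 (adjusted p = 0.113). With a minimum of 15 cells per class the Trem2 call ended (edgeR adjusted p = 0.0675). Spp1, osteopontin, had 434 and 337 CPM in members and 1568 and 519 CPM in C1q macrophages and did not pass (edgeR adjusted p = 0.73).

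Among 15 checkpoint and suppressive genes, 1 was higher and 3 were lower in members. Vsir, the checkpoint ligand VISTA, had 173 and 98.2 CPM in members and 72.5 and 57.4 CPM in C1q macrophages (1.17, SE 0.24, edgeR adjusted p = 0.0273). Arg1, the arginase that depletes arginine, had 0.831 and 1.25 CPM in members and 7.03 and 34.4 CPM in C1q macrophages (−3.84, SE 0.45, edgeR adjusted p = 0.0038). Nos2, the inducible nitric oxide synthase, had 0.346 and 0 CPM in members and 3.26 and 4.26 CPM in C1q macrophages (edgeR adjusted p = 0.0308). Cd40, the receptor for T-cell help, had 18.4 and 23.0 CPM in members and 47.4 and 58.0 CPM in C1q macrophages (−1.16, edgeR adjusted p = 0.0152). The Nos2 and Cd40 calls ended with no EGFP limit (edgeR adjusted p = 0.0711 and 0.155). With an EGFP N under 5 the Vsir, Nos2 and Cd40 calls ended (edgeR adjusted p = 0.0924, 0.0525 and 0.0767). Cd274, which encodes PD-L1, had 50.1 and 66.4 CPM in members and 98.9 and 74.5 CPM in C1q macrophages and did not pass (edgeR adjusted p = 0.568). Of 10 tested neurotrophic and matrix genes, 2 were higher and 3 (Mmp12, Tgfbi and Adam8) were lower. The higher genes, Gas6 and Mertk, encode a ligand and its receptor in the clearance of dead cells. Gas6 had 66.9 and 59.5 CPM in members and 36.1 and 18.9 CPM in C1q macrophages (1.45, edgeR adjusted p = 0.0221), and Mertk had 101 and 26.6 CPM in members and 61.3 and 9.06 CPM in C1q macrophages (1.29, edgeR adjusted p = 0.0457). The Mertk call ended with mitochondrial UMIs under 10% (0.0709), without barcodes of high doublet score (0.0801), with DESeq2 size factors (0.0728), with a C1q N of at least 50 (0.0935) and with an EGFP N under 5 (0.197) in edgeR, and in DESeq2 (adjusted p = 0.534). The Gas6 call ended with a C1q N of at least 50 (0.0587), a microglial N of at least 10 (0.0563) and an EGFP N under 5 (0.118) in edgeR. Mmp12, the macrophage elastase, had 0.277 and 3.08 CPM in members and 14.8 and 116 CPM in C1q macrophages (−5.19, SE 0.32, edgeR adjusted p = 6.26e-05). Igf1 had 26.8 and 23.8 CPM in members and 90.1 and 17.0 CPM in C1q macrophages and did not pass (edgeR adjusted p = 0.722).

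The remaining lists gave little. Of 14 immediate early and stress genes, 2 were higher (Atf3 and Nfkbiz, both induced by inflammatory signals) and 0 were lower. Atf3 had 394.7 and 495.9 CPM in members and 272.9 and 240.0 CPM in C1q macrophages, and Nfkbiz had 139 and 55.0 CPM in members and 64.0 and 15.9 CPM in C1q macrophages. Both calls ended without the barcodes of high doublet score (edgeR adjusted p = 0.157 and 0.0737). No gene passed among 15 of the interferon response, 16 of the cell cycle and 4 tested of MHC class II. Cell cycle genes summed to 614 and 962 CPM in members, 898 and 1027 CPM in C1q macrophages and 2795 and 2369 CPM in T cells. The summed cell cycle N had a median of 2.56 and 4.31 in members, with a 99th percentile of 53.5 and 46.95.

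**Figure D3:**
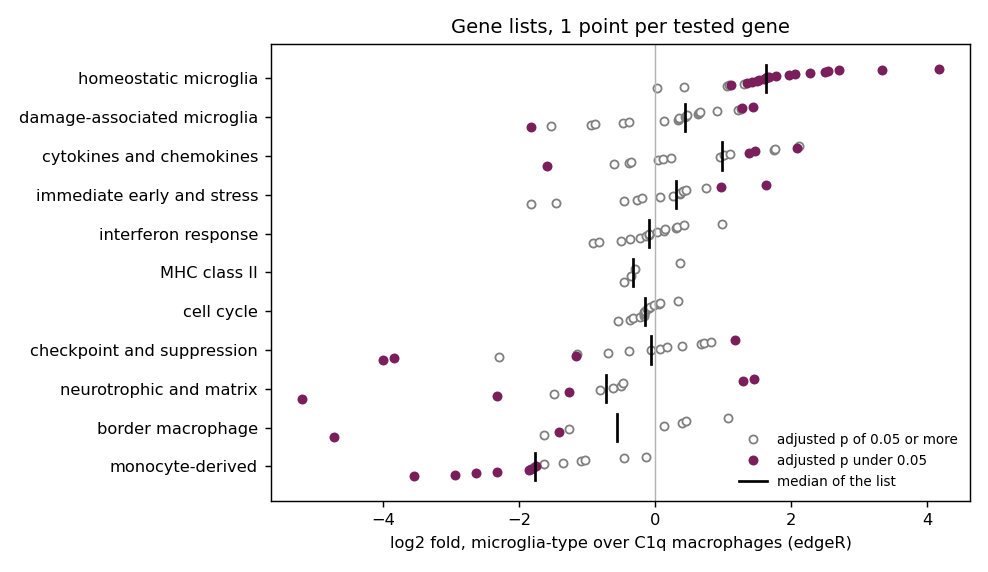
Log2 fold of microglia-type cells over C1q macrophages (edgeR) for each tested gene of 11 lists, filled where the adjusted p was under 0.05, with the list's median as a bar. The homeostatic list lay highest, with a median of 1.63, and the monocyte-derived list lowest, with a median of −1.77.

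Monocytes were too few in tumour 1 for a test at the minimum of 20 cells per class, so that pair is given as values. Among 2248 genes with at least 50 CPM in the higher class in both tumours, 37 (1.65%) were at least 4-fold higher in members in both tumours and 81 (3.6%) at least 4-fold lower. The tumour 1 sum of monocytes held 139573 UMIs. Trem2 had 1349 and 1170 CPM in members, against 43.0 and 96.2 CPM in monocytes. Timp2, an inhibitor of metalloproteinases, had 1250 and 991 CPM in members and 71.7 and 54.6 CPM in monocytes. Olfml3 had 411 CPM in members of both tumours and 43.0 and 15.5 CPM in monocytes. On the other side, Ccr2 had 3.95 and 3.31 CPM in members and 423 and 199 CPM in monocytes. Clec4e, the glycolipid sensor Mincle, had 1.04 and 1.03 CPM in members and 208 and 209.7 CPM in monocytes. With the minimum lowered to 15 cells, a choice made after the cell numbers were seen, edgeR called 667 genes higher and 635 lower of 12682, and 21 of 23 tested homeostatic genes higher.

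Between tumours, members of tumour 1 were set against members of tumour 2, with no test. Of 1308 genes at 100 CPM or more in 1 of them, 14 (1.07%) were at least 4-fold higher in tumour 1 and 14 (1.07%) in tumour 2, around a median log2 ratio of −0.21. Of the 7 listed genes of MHC class II, which presents antigen to CD4 T cells, H2-Aa, H2-Ab1, H2-Eb1, Cd74 and Ciita were lower in members of tumour 2 without reaching that size. H2-DMa and H2-DMb1, which load the peptide, went the other way, with 619.6 and 739.4 CPM and 396 and 427 CPM in members of tumours 1 and 2. H2-Ab1 had 3863 CPM in members of tumour 1 (exact Poisson 95% interval 3831 to 3895) and 1468 CPM in those of tumour 2 (1443 to 1494), while C1q macrophages had 4833 and 6112 CPM. Cd74, the invariant chain, had 10950 CPM in members of tumour 1 and 4559 CPM in those of tumour 2, while C1q macrophages had 12610 and 12070 CPM. The summed N of the tested MHC class II genes ran from a 10th percentile of 31.6 to a 90th of 284 in members of tumour 1, and from 7.13 to 139.7 in those of tumour 2, so the members of each tumour spread widely and overlapped.

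**Figure D4:**
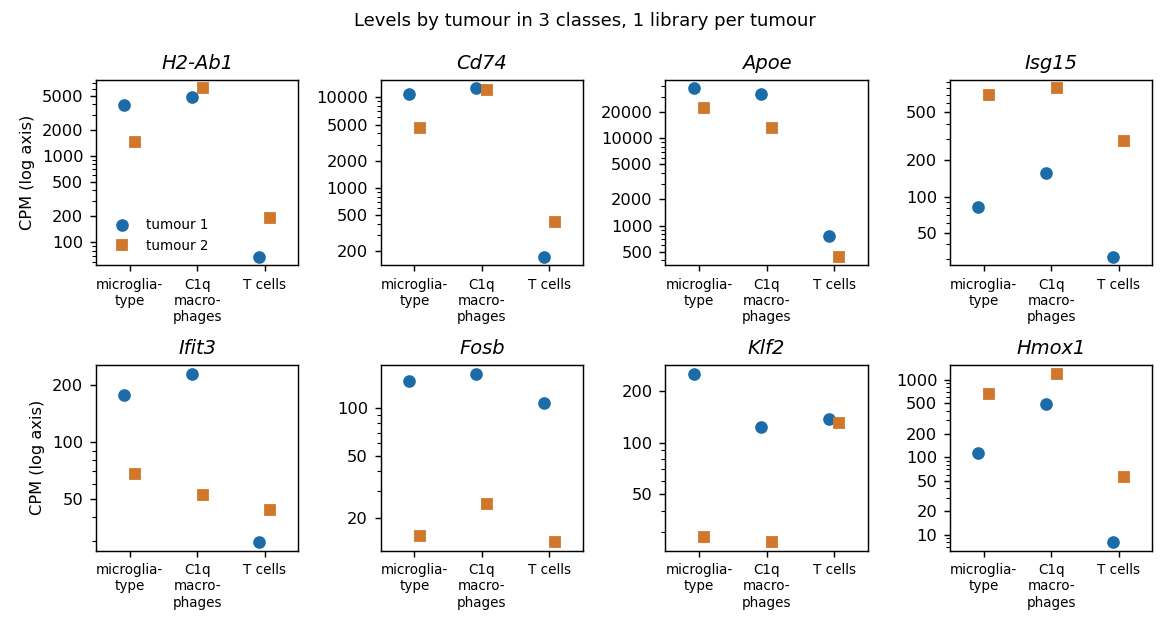
CPM (log axes) of 8 genes in microglia-type cells, C1q macrophages and T cells, with circles for tumour 1 and squares for tumour 2, 1 library each. In members H2-Ab1 stood at 3863 CPM in tumour 1 and 1468 CPM in tumour 2, while Isg15 stood at 82.2 and 704 CPM.

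Of the 12 genes in each direction with the largest ratio, all had the same sign of ratio in C1q macrophages, while in T cells 10 of those higher in tumour 1 and 12 of those higher in tumour 2 had it. The share with the same sign over all 1308 genes was not computed, so these counts cannot be called particular to the named genes. Over all genes tested in edgeR, differences between tumours correlated at 0.279 to 0.774 across pairs of classes. Fosb, an immediate early gene, had a log2 ratio of tumour 1 over tumour 2 of 3.28 in members, 2.74 in C1q macrophages and 2.94 in T cells. Klf2, a transcription factor of quiescence, had 252 CPM in members of tumour 1 and 28.1 CPM in those of tumour 2, with a log2 ratio of 3.17 in members, 2.23 in C1q macrophages and 0.09 in T cells. Ssh2, a cofilin phosphatase, had log2 ratios of 2.82, 2.19 and −0.11 in the same order. Other genes on this side were Rasgef1b, Ccnd2, Zfp36l1, Maf, Slc1a3, Syt11, Zbtb20 and Apoc1, with member ratios from 2.15 to 2.93. Slc1a3, a glutamate transporter, also marks astrocytes.

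Of the genes higher in tumour 2, the processed pseudogenes Gm10709 and Gm8730 had log2 ratios of −9.17 and −4.39 in members, −9.25 and −4.31 in C1q macrophages and −9.45 and −4.14 in T cells. Reads of a pseudogene can be shared with its parent gene, so both are uncertain. Isg15, a ubiquitin-like interferon product, had ratios of −3.10, −2.35 and −3.20 in the 3 classes, with 82.2 and 704 CPM in members. The interferon list was split between tumours. Gbp2, a guanylate-binding protein, had 167 CPM in members of tumour 1 and 469 CPM in those of tumour 2, in the direction of Isg15, and Ifit genes ran the other way, with Ifit1 at 67.2 CPM in tumour 1 and 14.8 CPM in tumour 2 and Ifit3 at 177 and 67.8 CPM. Hmox1, which breaks down haem, had 115 CPM in members of tumour 1 and 653 CPM in those of tumour 2 (−2.51, against −1.32 in C1q macrophages and −2.78 in T cells). Srxn1, which repairs oxidised peroxiredoxins, had ratios of −2.86, −1.25 and −0.93, and Slc7a11, the cystine importer, −2.34, −1.56 and −1.79. Hcar2, the receptor for nicotinic acid, had ratios of −2.80, −1.71 and −1.14. Hist1h1b, Arl6ip5, Npl, Arl5c and Hist1h2ap completed this side, with member ratios from −3.39 to −2.22. Within the homeostatic list, Sall1 was higher in members of tumour 1 (58.7 and 14.2 CPM), and Fcrls (262 and 536 CPM) and Sparc (396 and 806 CPM) were higher in those of tumour 2.

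Members with more of the microglial genes were compared with those with less, by bins of microglial N. In tumour 1, 207 members had an N from 5 to under 10, 312 from 10 to under 20 and 217 of 20 or more. The homeostatic microglia list, which shares no gene with the rule, summed to 8508, 13150 and 18840 CPM in the 3 bins, and the monocyte-derived list without gate genes to 2241, 1645 and 1189 CPM. In tumour 2, 204 and 117 members filled the lower bins and 7 the top one. The homeostatic microglia list summed to 13860 and 18320 CPM in the lower 2 bins, and the monocyte-derived list to 2211 and 1794 CPM. Thinning to 2000 UMIs before binning took the homeostatic log2 ratio of the top over the bottom bin in tumour 1 to 0.69 from 1.15, and that of the middle over the bottom bin in tumour 2 to 0.0078 from 0.40. The MHC class II list without gate genes was at 12910, 12390 and 10140 CPM in the bins of tumour 1 and 5770 and 5731 CPM in the lower bins of tumour 2. Glioma genes summed to 1336, 543 and 435.5 CPM in the bins of tumour 1 and 454 and 293 CPM in the lower bins of tumour 2. In thinned cells of tumour 1 they were at 689, 756 and 483 CPM. Oligodendrocyte genes summed to 594, 182 and 148.5 CPM in the unthinned bins of tumour 1. The part of such transcripts in the order of the bins was not tested.

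Transcripts of other lineages were measured beside these results. The 12 glioma genes summed to 765 and 400.3 CPM in members, 1316 and 566 CPM in C1q macrophages, 726 and 684 CPM in T cells and 5808 and 4350 CPM in barcodes with an EGFP N of at least 100. EGFP itself had 601 CPM in members of tumour 1, against 701 CPM in T cells and 20910 CPM in the EGFP-high barcodes. In tumour 2 it had 494 CPM in members, against 744 CPM in T cells and 26490 CPM in the EGFP-high barcodes, under the feature name that held nearly all of it. Astrocyte genes summed to 269 and 73.2 CPM in members and 671 and 109 CPM in C1q macrophages, and Aqp4 passed as lower in members (−2.19, edgeR adjusted p = 0.0163). Without barcodes of high doublet score, which were 7.2% of members and 19.3% of C1q macrophages in tumour 1, the Aqp4 fold was −0.87 and the call ended (edgeR adjusted p = 0.46), as it did in DESeq2 (0.0518) and with an EGFP N under 5 (0.456). The T and NK cell list summed to 13.2 and 7.76 CPM in members and 3178 and 2171 CPM in T cells. S100a8 and S100a9, which define neutrophils, had 0.208 and 0.139 CPM in members of tumour 1 and 75.2 and 93.5 CPM in those of tumour 2, where C1q macrophages had 22.6 and 25.3 CPM. Retnlg, a neutrophil granule gene, was called higher in members (3.00, edgeR adjusted p = 0.0245), with 0 and 12.6 CPM in members and 0 and 1.62 CPM in C1q macrophages, so that the call rests on tumour 2 alone. It ended in DESeq2 (adjusted p = 0.984) and, in edgeR, with an EGFP N under 5 (0.0642). Of the T and NK cell list, Klrk1 was called lower in members (−2.65, edgeR adjusted p = 0.0206), and that call ended with no EGFP limit (0.0926). The part of these transcripts in the differences above was not tested.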

How the data were processed

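Each of 2 single-cell libraries (10x 3′ chemistry) came from 1 NPCTKO tumour. The authors aligned reads to mm10 with Cell Ranger 4.0.0, and the deposited matrices hold raw UMI counts per gene and barcode, with no normalization; transgenes were kept out of totals. Members and gene lists were chosen with earlier results of these data known. Counts were summed per tumour and class (at least 20 cells in each tumour), and edgeR 4.0.16 (R 4.3.3) was fitted to 8 sums of 4 classes with filterByExpr, TMM and tumour as a block. The 24 genes that define gates stayed in library sizes but out of tests. The edgeR fit was tested on simulated data in which all classes shared the same profile and the same shift between tumours, unlike the real classes. Its alternatives, which include DESeq2 1.42.0, were not tested in that way. The 2 tumours pair the classes by animal: over 6 pairs of classes, differences between tumours correlated at 0.279 to 0.774.

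Monocytes (15 cells in tumour 1) missed the minimum set for the edgeR test, so genes 4-fold apart in both tumours are described instead, a change made after the cell numbers were seen. Named genes were the 12 in each direction with the largest log2 fold among those with an adjusted p under 0.05, the same direction of plain CPM in both tumours and 50 CPM in the higher class in both, plus the listed genes. Between tumours they were the 12 in each direction with the largest ratio at 100 CPM or more and 4-fold apart. Ribosomal, mitochondrial and haemoglobin genes were not named, nor were Y-linked genes and Xist. A few genes that met these rules are not reported here. Where a class had no UMI, 3 counts stood in for the sum. Intervals are 95% exact. Alternatives changed the limits, filters, scaling, tool, block, doublets and depth. P-values measure the spread left after the tumour block, pooled over 4 classes of cells from 2 animals.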

Additional observations from a re-analysis of the deposited data

Results flagged for a closer look

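Tumours 1 and 2 gave opposite signs for more than 7 listed genes when plain CPM of microglia-type cells was set against C1q macrophages. Counting intervals were apart in both tumours for each of them. Of these genes 7 are given here, and Igf1, Slc1a3 and Cldn5 were among the others. The difference between tumours was not tested. The log2 ratios in tumours 1 and 2 were −0.24 and 0.65 for Cd63, −0.40 and 0.97 for Lpl and −0.20 and 0.11 for Cd68. They were −0.59 and 0.32 for Gbp2, −0.34 and 0.28 for Iigp1 and −0.38 and 0.36 for Ifit3, all 3 interferon-induced. Mbp, a myelin gene, gave 0.57 and −0.34.

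Transgenes enter no comparison of the report beyond EGFP. The tdTomato reporter of the host had 10.9 CPM in microglia-type cells of tumour 1 (158 UMIs), above the limit that a count of 0 allows, with 12.6 CPM in C1q macrophages, 14.9 CPM in T cells and 4.83 CPM in EGFP-high barcodes. In tumour 2 it had 3 UMIs in microglia-type cells. Luciferase had 12.7 CPM in microglia-type cells of tumour 1, with 19.1 CPM in C1q macrophages, 14.0 CPM in T cells and 227 CPM in EGFP-high barcodes.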

How the results depend on the processing

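The block decided the comparison with C1q macrophages: without the replicate block edgeR called 0 genes higher and 0 lower, and none of the 24 named genes passed, though all kept their direction. Higher calls numbered 115 without high doublet scores, 335 with no EGFP limit, 278 with a microglial N of at least 10 and 439 with no filter on low counts. Lower calls numbered 210 and 453 in the last 2 settings. An EGFP N under 5, in a fit that also lost the dendritic cells, left 23 higher and 35 lower. Of the 12 named genes in each direction, 6 and 5 kept their call there. The 24 named genes kept their direction in every alternative to the fit.

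For monocytes, an EGFP N under 5 left 3 genes 4-fold higher, a value that rests on 1 monocyte in tumour 1, and leaving out a tumour gave 55 to 76 higher and 143 to 220 lower. Division by the median ratio gave 24 genes 4-fold higher in tumour 1.

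The share of members in tumour 1 was 2.51% with an EGFP N under 5, 6.58% with no EGFP limit, 4.12% with a microglial N of at least 10 and 6.17% in thinned cells. In tumour 2 these were 1.19%, 2.66%, 0.797% and 3.50%, with 2.36% without high doublet scores and 2.37% with at least 1000 genes.

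In thinned cells the log2 ratios of the top over the bottom bin of tumour 1 were 0.69 for the homeostatic, −0.44 for the MHC class II, −0.72 for the monocyte-derived and 0.26 for the cytokine list. Of the middle over the bottom bin they were 0.22 and −0.23 for the first 2 and −0.028 for the cytokine list in tumour 1, where the unthinned value was 0.45. In tumour 2 they were 0.0078, 0.0037, −0.18 and 0.13, with MHC class II at −0.0097 unthinned. The cause was not tested. Depth limits the genes near 1 CPM, and 1 library per tumour limits every comparison between tumours.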
